A study of Homo sapiens with 6 samples.

Results

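Chromatin recovered with non-specific IgG was compared with unselected input chromatin across gene promoters in MRC5, a line of wild-type fibroblasts from human lung. The members are all 19957 promoter windows of the deposited count table, of 19957 in all, read in 4 of the 6 libraries of the series. Those libraries are 2 of IgG ChIP (replicates 1 and 2), 1 input of the IgG arm and 1 input of the NuMA arm, and the inputs were used together as 2 libraries. The other 2 libraries are ChIP for NuMA, the nuclear mitotic apparatus protein, for which IgG serves as the control in a study of DNA repair. The labels give no treatment, and all 4 libraries come from the same wild-type line. They do not say whether the libraries came from separate cultures, so p-values measure only the spread between these libraries, which may be technical. The libraries hold genomic DNA, so promoters of cell type genes do not check the identity of the cells.

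An IgG control replaces the specific antibody with immunoglobulin that has no intended target, so the DNA recovered is what binds beads, tubes and antibody without specificity. Input is sheared chromatin taken before the pull-down, and it carries the sampling of fragmentation, amplification and sequencing alone. Human promoters fall broadly into CpG-rich ones, which usually drive housekeeping and regulatory genes and stay free of DNA methylation, and CpG-poor ones, which often drive genes used in a single tissue and may carry a TATA box.

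Promoters above and below input differed in CpG content, so the sequences of the leading promoters of each direction found in the RefSeq table are shown. Each sequence is RefSeq GRCh38.p14, 5′ to 3′ on the gene's strand, from 250 bases before to 50 bases after the annotated start, and capitals mark CpG dinucleotides. KHDRBS2 lies at chr6:62286176-62286475 on the minus strand, CCDC179 at chr11:22860425-22860724 on the minus strand and DEFB129 at chr20:227008-227307 on the plus strand. These 3 had more IgG than input signal.
KHDRBS2: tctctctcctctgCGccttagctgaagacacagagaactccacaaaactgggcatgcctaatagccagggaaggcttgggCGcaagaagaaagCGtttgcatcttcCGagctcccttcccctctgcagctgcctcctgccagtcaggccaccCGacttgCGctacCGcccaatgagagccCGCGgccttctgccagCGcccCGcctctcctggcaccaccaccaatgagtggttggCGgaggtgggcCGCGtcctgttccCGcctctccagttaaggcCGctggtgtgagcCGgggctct
CCDC179: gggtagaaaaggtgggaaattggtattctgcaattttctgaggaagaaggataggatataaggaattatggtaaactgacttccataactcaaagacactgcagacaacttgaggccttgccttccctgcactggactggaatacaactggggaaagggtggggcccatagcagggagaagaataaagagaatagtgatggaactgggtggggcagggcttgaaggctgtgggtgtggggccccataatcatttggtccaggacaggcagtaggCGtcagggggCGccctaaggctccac
DEFB129: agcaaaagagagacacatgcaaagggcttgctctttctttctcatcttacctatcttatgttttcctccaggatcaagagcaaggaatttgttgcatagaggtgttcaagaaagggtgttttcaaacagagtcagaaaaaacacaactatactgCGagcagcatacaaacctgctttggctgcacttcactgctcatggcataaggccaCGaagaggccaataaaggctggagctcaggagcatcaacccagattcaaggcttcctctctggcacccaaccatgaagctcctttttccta
HSP90B1 lies at chr12:103930160-103930459 on the plus strand, CITED2 at chr6:139374599-139374898 on the minus strand and HEXIM1 at chr17:45148225-45148524 on the plus strand. These 3 had less IgG than input signal.
HSP90B1: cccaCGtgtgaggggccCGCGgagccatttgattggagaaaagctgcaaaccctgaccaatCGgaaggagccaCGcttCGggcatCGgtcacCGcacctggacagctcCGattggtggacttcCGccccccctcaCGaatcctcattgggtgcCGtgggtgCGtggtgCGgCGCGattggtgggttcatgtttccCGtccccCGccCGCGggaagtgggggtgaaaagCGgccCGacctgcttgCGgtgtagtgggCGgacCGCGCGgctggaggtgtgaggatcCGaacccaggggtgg
CITED2: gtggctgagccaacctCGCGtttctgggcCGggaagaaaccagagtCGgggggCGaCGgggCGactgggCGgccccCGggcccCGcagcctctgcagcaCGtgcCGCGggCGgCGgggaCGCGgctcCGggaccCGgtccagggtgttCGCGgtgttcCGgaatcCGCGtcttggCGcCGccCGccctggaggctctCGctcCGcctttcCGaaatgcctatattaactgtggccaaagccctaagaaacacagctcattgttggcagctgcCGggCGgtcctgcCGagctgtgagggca
HEXIM1: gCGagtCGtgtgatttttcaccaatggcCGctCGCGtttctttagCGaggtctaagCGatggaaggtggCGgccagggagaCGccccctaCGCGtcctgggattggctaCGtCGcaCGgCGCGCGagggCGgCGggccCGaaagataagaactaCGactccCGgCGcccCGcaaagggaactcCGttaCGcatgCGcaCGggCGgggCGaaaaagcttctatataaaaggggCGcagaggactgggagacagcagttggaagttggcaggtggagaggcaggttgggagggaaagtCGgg
CCDC179 and DEFB129 hold 2 CpG dinucleotides each and KHDRBS2 holds 17. HSP90B1, CITED2 and HEXIM1 hold 28, 33 and 32. The contrast is therefore seen in 5 of these 6 sequences, and KHDRBS2 lies between. Across all leading promoters with a sequence the ranges overlapped. The 8 above input held 1 to 34 CpG, 4 of them under 9, and the 9 below input held 16 to 45.

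The libraries differed in depth and in likeness. IgG ChIP replicates 1 and 2 held 616242 and 366594 promoter counts, the input of the IgG arm 791361 and that of the NuMA arm 729744. Median counts per window were 27, 18, 38 and 36 in the same order. Across the 16216 windows with enough counts to test, Pearson's r of log2 CPM (counts scaled to library size, plus 1) was 0.55 for the IgG pair and 0.82 for the input pair. Replicate 1 of IgG correlated with the inputs at 0.64 and 0.59, and IgG replicate 2 at 0.31 and 0.33. Windows share each library and are not independent, so these are descriptions. The biological coefficient of variation that edgeR estimated within a pair was 31.3% for IgG and 15.7% for the inputs. In the deposited profile around transcription start sites, the signal within 500 positions of the start was 1.41 and 1.37 times that of the outermost flanks in the inputs, 1.29 times in IgG replicate 1 and 1.04 times in IgG replicate 2. IgG replicate 2 thus stood apart: it was the shallowest library and the least like input. Counts are therefore given for each library, and family medians by library are plotted.

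The first question was whether IgG recovery departed from input at single promoters. With edgeR's quasi-likelihood test and Benjamini-Hochberg adjustment over 16216 windows, 0 windows were called higher (0%) and 0 lower (0%) at an adjusted p of 0.05. The smallest adjusted p was 0.0514. Unadjusted, 2243 windows had a p under 0.05 on the higher side and 1716 on the lower side. At an adjusted p under 0.1 there were 822 higher and 548 lower windows. DESeq2 called 37 higher and 13 lower, and limma-voom with sample weights 193 and 9. The counts of calls moved widely with the processing, so the promoters and families below are given as levels with their spread, and none is called changed by the edgeR test.

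Without a test, 1542 of the 16216 windows (9.51%) had both IgG libraries above both inputs and a fitted difference of at least 2-fold. In the other direction, 1093 windows (6.74%) had both IgG libraries below both inputs and a fitted difference of at least 2-fold. Windows, promoters and list members called at least 2-fold higher or lower below meet this rule, in which the fitted value and not each library passes 2-fold. Set singly against the mean input, IgG replicate 1 was at least 2-fold above in 1213 windows and at least 2-fold below in 1649. IgG replicate 2 was above in 2363 and below in 1976. Both libraries passed 2-fold on the higher side in 690 windows and on the lower side in 511, and they passed it in opposite directions in 100. Of 10853 windows with at least 30 counts in each input, 1 had no count in IgG replicate 1 and 5 had none in IgG replicate 2. Whole promoters were therefore rarely absent from the IgG libraries, and the difference from input was one of degree.

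**Figure D1:**
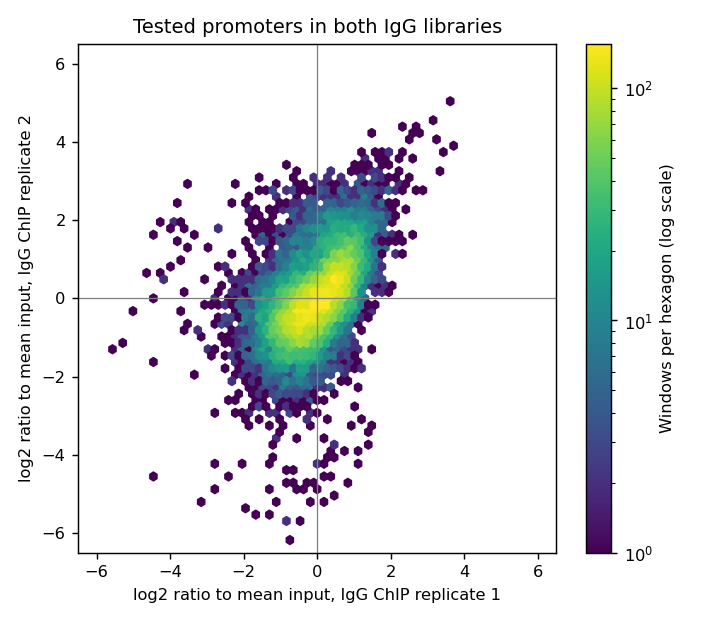
Log2 ratio to the mean input (CPM plus 1) of IgG ChIP replicate 1 on the horizontal axis and of replicate 2 on the vertical axis, for 16216 tested windows, coloured by windows per hexagon on a log scale. Windows at least 2-fold above the mean input in both libraries number 690 and those at least 2-fold below in both 511, against 100 at least 2-fold apart from it in opposite directions.

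Promoters poor in CpG held a larger share of the IgG counts than of the input counts, and promoters rich in CpG a smaller share. The 12514 windows with a RefSeq promoter sequence were ranked by the number of CpG dinucleotides in the 300 bases and split into 5 quintiles. The poorest quintile (2503 windows, 0 to 8 CpG, median 3) took 20.8% and 25.9% of the counts that IgG replicates 1 and 2 had in these windows, set against 14.5% and 15.1% in the inputs of the IgG and NuMA arms. Both IgG libraries were above both inputs, and replicate 2 was the higher one. The mean was 23.3% ± 3.65 (SD, n = 2) for IgG and 14.8% ± 0.430 (SD, n = 2) for input, a difference of 8.55 percentage points or 1.58 times. The richest quintile (35 to 67 CpG, median 40) took 20.9% and 18.3% of IgG counts against 24.5% and 23.6% of input counts. Here both IgG libraries were below both inputs. The mean was 19.6% ± 1.85 (SD, n = 2) for IgG and 24.0% ± 0.698 (SD, n = 2) for input, a difference of -4.44 points or 0.82 times. For each of these shares the exact two-sided permutation p was 0.33, the smallest that 2 libraries against 2 can give.

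The trend ran through the quintiles in between. The IgG share was 1.06 times the input share in the second quintile, 0.89 times in the third and 0.85 times in the fourth. By window, 24.7% of the tested promoters in the poorest quintile were at least 2-fold higher by the rule above and 0.69% at least 2-fold lower. In the richest quintile those shares were 1.41% and 11.8%. These shares and the fitted medians below cover tested windows only, 2042 of 2503 in the poorest quintile and 2135 of 2502 in the richest. The count filter can keep a low-input window through its IgG counts alone, while a window low in both groups is left out. The shares of counts above cover all windows with a sequence. The median fitted log2 ratio went from 0.67 in the poorest quintile to 0.01, -0.31 and -0.35 in the next 3 quintiles and -0.39 in the richest. These are directions relative to other promoters. Scaling on the flanks of the start site profile in place of promoter counts moved the median of all tested windows from 0.01 to -0.76. That of the poorest quintile moved to -0.12 and that of the richest to -1.15. Flank signal was 31297 and 27852 in IgG replicates 1 and 2 and 28279 and 27825 in the inputs. Signal at the start was 40467 in IgG replicate 1 and 39820 in the IgG input, where promoter counts were 616242 and 791361. Profile and counts thus may not share a scale. With flanks near equal, the shift carries the lower IgG promoter counts and sets no absolute level. Median input signal was itself lower in the poorest quintile, at 30.5 CPM against 63.7 CPM in the richest. In IgG the medians were 53.8, 49.1, 40.4, 44.9 and 47.7 CPM from the poorest to the richest quintile, lowest in the third.

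**Figure D2:**
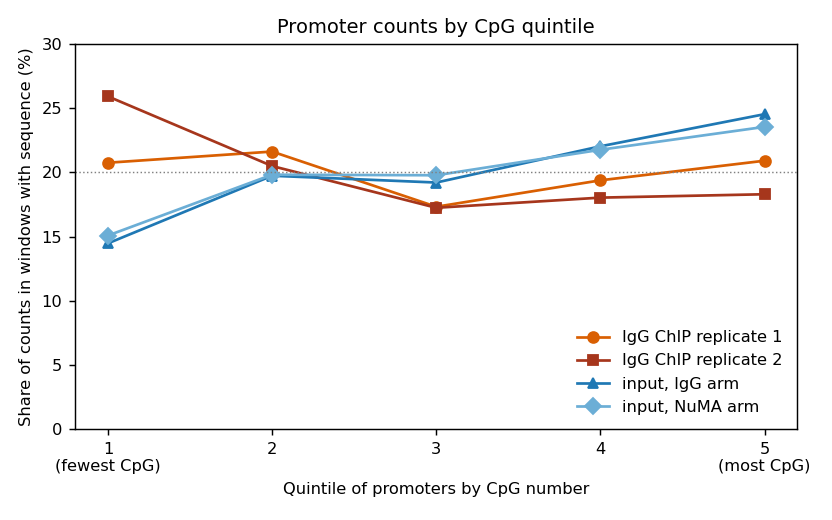
Share of each library's counts in windows with a sequence (%, vertical axis) in quintiles of promoters ranked by CpG number (horizontal axis), over 12514 windows with a RefSeq promoter sequence. Each line is 1 library, and the dotted line at 20% marks an even split. In the poorest quintile the IgG libraries sit at 20.8% and 25.9% and the inputs at 14.5% and 15.1%, and in the richest quintile the order is reversed.

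Related sequence measures behaved alike. Split by GC content, the poorest quintile took 15.8% and 22.9% of the IgG counts against 11.8% and 12.8% of the input counts, and the richest 22.7% and 19.4% against 25.7% and 24.2%. Over 10247 tested windows with sequence, Spearman's correlation between CpG number and the log2 ratio to input was -0.34 in IgG replicate 1 and -0.46 in replicate 2. For GC content it was -0.23 and -0.43, and for the observed over expected CpG ratio -0.40 and -0.42. These correlations share libraries, depth and base composition between windows and are descriptions only. The value for GC content differed more between the IgG libraries than the value for the CpG ratio.

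A pair of core promoter motifs was counted on both strands of the same 300 bases. GGGCGG, the GC box bound by SP1, was found in 61.7% of the 12514 promoters. Promoters with it took 62.4% and 57.5% of the IgG counts against 68.2% and 67.3% of the input counts, and those without it took 1.24 times their input share. TATAAA, the core of the TATA box, was found in 9.24%. Promoters with TATAAA took 8.85% and 10.6% of the IgG counts against 7.43% and 7.57% of the input counts, which is 1.30 times. A match is a run of letters and not a site, and both motifs depend on base composition.

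Among the 10 promoters with the smallest p on the higher side were KHDRBS2, CCDC179, RAB37, DEFB129, KRTAP19-7, EXOC8, AMPH, GZMB and HLA-F. KHDRBS2, an RNA-binding protein, held 60 and 46 counts in IgG replicates 1 and 2 and 21 and 26 in the inputs of the IgG and NuMA arms. That is 100 and 132 CPM against 26.6 and 35.5 CPM, a log2 ratio of 1.88 ± 0.35 (SE) with an edgeR adjusted p of 0.0650. Both IgG libraries lay well above both inputs. CCDC179 held 61 and 57 counts against 28 and 30, and DEFB129, a beta-defensin, held 53 and 49 against 28 and 20. KRTAP19-7, a hair keratin-associated protein, had the largest ratio of the 10, with 30 and 23 IgG counts against 4 and 2 input counts and a log2 ratio of 3.81 ± 0.76 (SE). Its input level rests on few counts.

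Among the others, GZMB, the cytotoxic protease granzyme B, held 66 and 47 counts in IgG replicates 1 and 2 against 12 and 34 in the inputs, and here the inputs differed from each other. AMPH, a protein of synaptic vesicle endocytosis, held 93 and 34 against 35 and 27, so in counts IgG replicate 2 was not above the deeper input, though in CPM it was. RAB37, a small GTPase of secretion, held 61 and 48 against 24 and 29, and HLA-F, a non-classical HLA class I protein, held 74 and 44 against 27 and 37. EXOC8, an exocyst subunit, held 136 and 33 against 26 and 41. Its window overlaps another and its IgG libraries stood apart at 227 and 94.8 CPM. Log2 ratios of the 10 ran from 1.56 to 3.81. The 8 with a RefSeq sequence held 1 to 34 CpG, with a median of 9.5.

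On the lower side the 10 smallest p-values included those of HSP90B1, CITED2, HEXIM1, JUN, RALY, ASXL1, FRYL, TOLLIP and SMAD2. HSP90B1, the chaperone GRP94 of the endoplasmic reticulum, held 8 and 4 counts in IgG replicates 1 and 2 and 62 and 80 in the inputs of the IgG and NuMA arms. In CPM these were 13.3 and 11.5 against 78.6 and 109, a log2 ratio of -2.87 ± 0.45 (SE), an edgeR p of 5.34e-06 and an adjusted p of 0.0514. Both IgG libraries were far below both inputs and close to each other. CITED2, a partner of the coactivators CBP and p300, held 16 and 4 counts against 78 and 78. HEXIM1, an inhibitor of the elongation kinase P-TEFb, held 26 and 8 against 126 and 90. JUN, a subunit of the AP-1 transcription factor, held 19 and 5 against 83 and 88, a log2 ratio of -2.18 ± 0.39 (SE). In these 3 promoters IgG replicate 2 was the lower library in CPM.

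RALY, an RNA-binding protein, held 44 and 21 counts against 170 and 126. ASXL1, a chromatin regulator, held 20 and 16 against 98 and 95, and SMAD2, which relays TGF-beta signals, held 26 and 18 against 117 and 98. TOLLIP, an adaptor of Toll-like receptor signalling, held 24 and 10 against 97 and 83, and FRYL held 16 and 10 against 88 and 67. Log2 ratios of the 10 ran from -2.87 to -1.51. The 9 with a RefSeq sequence held 16 to 45 CpG, with a median of 32. All 20 promoters of both groups were chosen by p, so their separation is a description. With offsets from a trend of counts on CpG number, 4 of the 8 higher promoters with a sequence moved by over 1.5 times, CCDC179 to a log2 ratio of 1.03, DEFB129 to 1.09, KRTAP19-7 to 3.09 and GZMB to 1.22. KHDRBS2 was at 1.92 and the 9 lower ones ran from -2.64 to -1.23. For the 20 promoters the adjusted p was 0.0514 to 0.0650 with edgeR and passed 0.05 with DESeq2 in all 20. With IgG replicate 1 as the only IgG library, log2 ratios ran from 1.40 to 3.60 on the higher side and from -2.80 to -1.41 on the lower. With replicate 2 alone they ran from 1.06 to 3.97 and from -3.17 to -1.48. EXOC8 was at 1.06 with replicate 2 alone and at 2.35 with replicate 1 alone. The 20 were chosen from these same libraries, so DESeq2 and the refits are descriptions and no independent check.

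**Figure D3:**
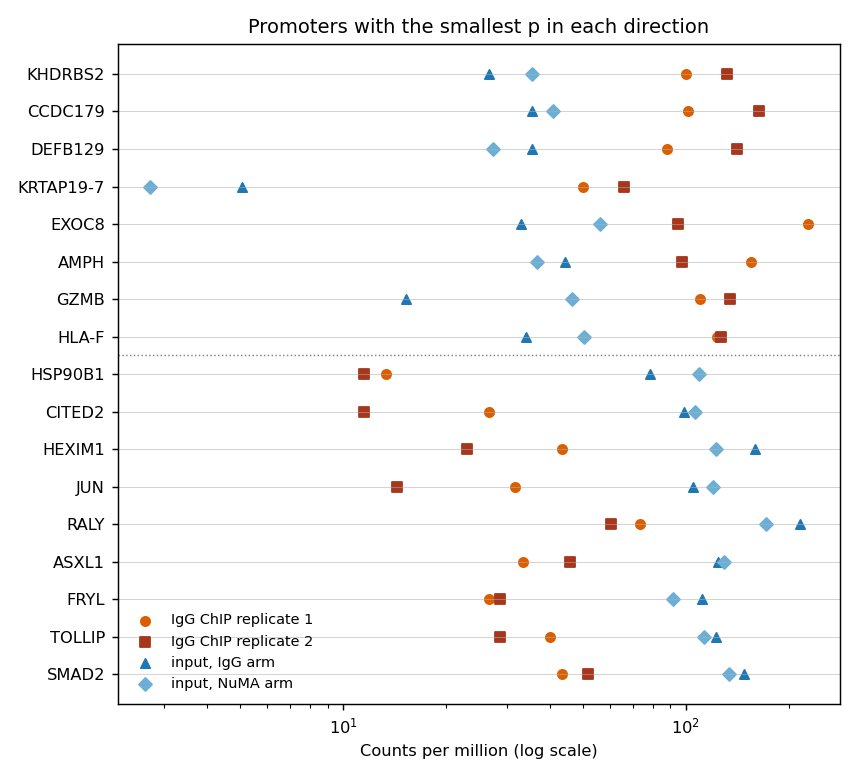
CPM (log scale, horizontal axis) in each library for those promoters with a RefSeq sequence among the 10 with the smallest p on each side, 8 higher (above the dotted line) and 9 lower (below it). Each point is 1 library; HSP90B1 lies at 13.3 and 11.5 with IgG and at 78.6 and 109 in input, and KHDRBS2 at 100 and 132 against 26.6 and 35.5.

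Promoters were next grouped by gene family. The 28 lists hold 1611 windows, of which 1311 were tested. Sums of CPM given for a list cover all its windows, tested or not. Under the flank scaling described above some list medians stayed above 0. They were those of olfactory receptors, keratin-associated proteins, cornified envelope genes, defensins, taste receptors, type I interferons and clustered protocadherins. The medians of all other lists lay below 0. That scaling carries the lower IgG promoter counts, so these signs are not absolute levels. For each list the count at least 2-fold higher or lower, by the rule on the fitted value and the side of both libraries, is to be read against 9.51% and 6.74% of all tested windows. For unadjusted p under 0.05 the background is 2243 higher and 1716 lower of 16216.

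Olfactory receptors, the odorant receptors of the nasal epithelium, formed the largest high family. Their 186 windows, 147 of them tested, summed to 6605 and 12477 CPM in IgG replicates 1 and 2. In the inputs they summed to 3946 and 4389 CPM. IgG replicate 2 was the higher, and both were above the inputs. The IgG mean was 2.29 times the input mean. At least 2-fold higher were 76 of 147 and at least 2-fold lower 0. An unadjusted p under 0.05 on the higher side was seen in 84 and on the lower side in 0. The median log2 ratio was 1.18, or 0.68 in replicate 1 and 1.58 in replicate 2. OR5K4, the highest, held 13 and 13 IgG counts against 0 and 2 input counts, and passed the count filter only through the IgG libraries. OR51E1, the lowest, held 31 and 13 against 45 and 46 counts and a log2 ratio of -0.40 ± 0.38 (SE).

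Genes of the hair shaft and the outer epidermis followed. Keratin-associated proteins, which embed the keratin filaments of hair, summed to 4704 and 5456 CPM in IgG replicates 1 and 2 and to 2876 and 3048 CPM in the inputs. Of 79 tested, 37 were at least 2-fold higher and 0 lower, with a median log2 ratio of 1.03. The late cornified envelope and small proline-rich genes, which build the skin barrier, summed to 1587 and 1781 CPM against 777 and 832 CPM. All 24 tested windows of this family had both IgG libraries above both inputs, against 27.9% of all tested windows. In this family 14 of the 24 had a fitted difference of at least 2-fold. Its medians were close in the IgG libraries, at 0.99 and 1.01. SPRR3 had the highest ratio, with 24 and 29 IgG counts against 4 and 18 input counts, and IVL (involucrin) the lowest, with 46 and 26 against 38 and 45. Keratins, the filament proteins themselves, had a median of 0.66. Of 46 tested, 10 were at least 2-fold higher and 1 lower. KRT27 held 40 and 33 IgG counts against 7 and 24 input counts, and KRT80 43 and 10 against 98 and 82.

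Families of host defence lay in the same direction. Defensins, small antimicrobial peptides, summed to 1605 and 2463 CPM in IgG replicates 1 and 2 against 797 and 1066 CPM in the inputs, and 12 of 28 tested were at least 2-fold higher and 0 lower. DEFA5 held 32 and 22 IgG counts against 10 and 7 input counts, a log2 ratio of 2.36 ± 0.61 (SE). Type I interferons, the antiviral cytokines, had the highest median, 2.08, or 1.36 in replicate 1 and 2.36 in replicate 2, and it was 1.32 when replicate 2 was left out of the fit. Only 8 of their 16 windows had enough counts to test, 5 of them at least 2-fold higher. All 16 windows together summed to just 123 and 141 CPM in the inputs against 273 and 679 CPM in IgG. IFNA4 held 10 and 26 IgG counts against 4 and 0 input counts, and IFNA21 held 18 and 10 against 12 and 20. Chemokines, which attract leukocytes, had a median of 0.74, with 11 of 31 at least 2-fold higher and 0 lower. CCL4 was the highest with 31 and 40 IgG counts against 24 and 11. A filter on counts keeps a low-input window through its IgG counts, so the lists' tested members are not all members.

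Receptors and adhesion genes in clusters were high as well. Taste receptors, which detect bitter, sweet and umami compounds, had a median of 0.96, or 0.51 in IgG replicate 1 and 1.27 in replicate 2, with 5 of 14 tested at least 2-fold higher. Refitted with its own filter, that median was 2.37 without IgG replicate 1, 0.53 without replicate 2 and 1.98 without the NuMA input. TAS2R7 held 14 and 19 IgG counts against 6 and 2. Clustered protocadherins, adhesion proteins that give neurons individual surface identities, summed to 2329 and 3208 CPM in IgG replicates 1 and 2 against 1581 and 1640 CPM. Of 48 tested, 17 were at least 2-fold higher and 0 lower, with a median of 0.81. PCDHB12 held 32 and 32 IgG counts against 12 and 20. The MAGE, GAGE and SSX genes, cancer-testis genes of chromosome X, summed to 1777 and 1642 CPM against 1078 and 984 CPM, and 10 of 33 were at least 2-fold higher. MAGEB18 held 26 and 28 IgG counts against 9 and 7. In this family IgG replicate 1 was the higher library.

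**Figure D4:**
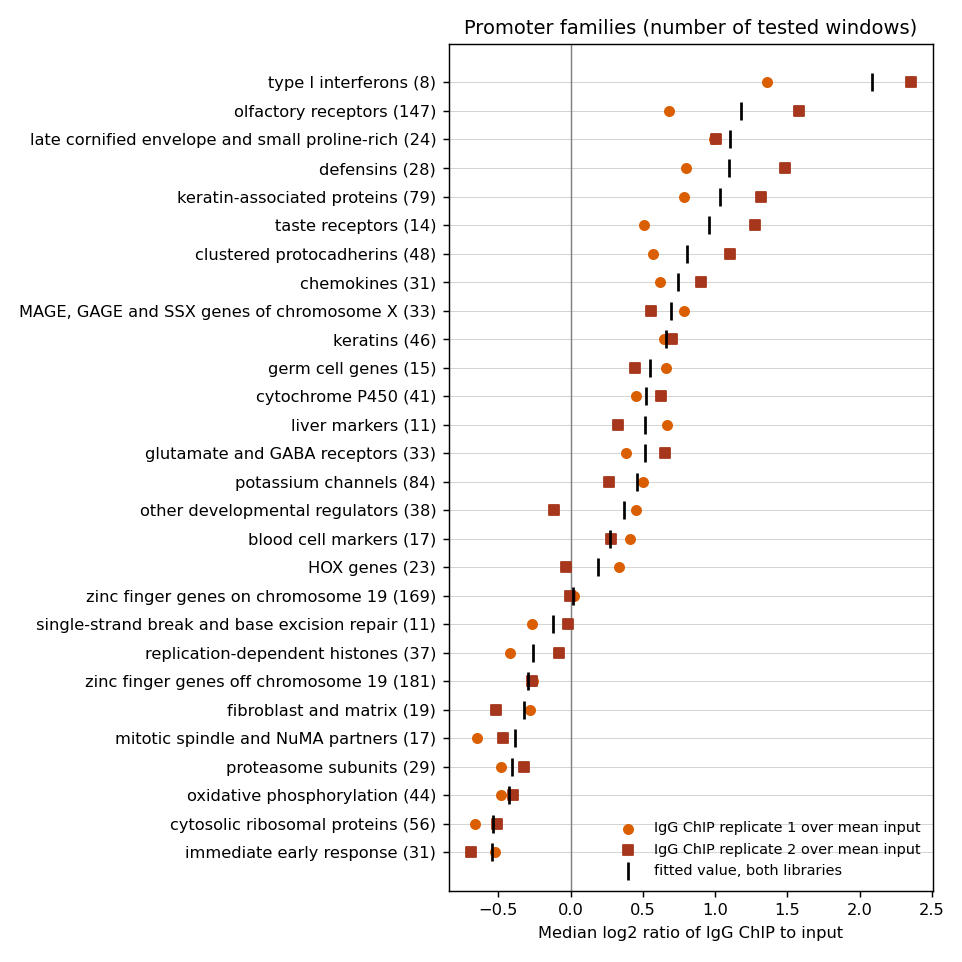
Median log2 ratio of IgG ChIP to input (horizontal axis) for 28 promoter families (vertical axis, with the number of tested windows); circles are IgG ChIP replicate 1 and squares replicate 2, each over the mean input, and ticks are the fitted value. Olfactory receptors lie at 0.68 and 1.58 and cytosolic ribosomal proteins at -0.66 and -0.51.

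The CpG content of these families, where at least 80% of members had a sequence, was low. Median CpG number in 300 bases was 1 for type I interferons, 2 for keratin-associated proteins, for cornified envelope genes and for taste receptors, 7 for clustered protocadherins and 11.5 for the cancer-testis genes. Replication-dependent histones, a family without high IgG signal, had a median of 12. Their median log2 ratio was -0.26, with 2 of 37 tested at least 2-fold higher and 4 lower. Of the 67 histone windows, 47 overlap another window. CpG content did not sort all the lists. Median CpG was 23.5 for glutamate and GABA receptors, 21 for germ cell genes and 19 for potassium channels, whose median log2 ratios were above 0. Sequences covered 20 of 35, 13 of 18 and 60 of 86 of their windows. It was 22 for oxidative phosphorylation and 21.5 for proteasome subunits, whose median log2 ratios were below 0.

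Other tissue-restricted lists were intermediate. Medians were 0.55 for germ cell genes, 0.52 for cytochrome P450 enzymes of drug and steroid metabolism and 0.52 for liver markers. At least 2-fold higher were 3 of 15, 6 of 41 and 3 of 11. STRA8, a gene of meiotic entry, held 70 and 38 IgG counts against 42 and 30, and TTR, a plasma carrier made in liver, 23 and 27 against 16 and 20. Blood cell markers had a median of 0.27, with 3 of 17 at least 2-fold higher. Glutamate and GABA receptors had a median of 0.51 with 8 of 33 at least 2-fold higher and 1 lower, and potassium channels 0.46 with 4 of 84 higher and 0 lower. For potassium channels the share past 2-fold was below the background of 9.51%, although the median was above 0. KCNMA1, the lowest of them, had 46 and 9 IgG counts against 82 and 77.

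Immediate early genes and ribosomal proteins had the lowest medians of the lists. Immediate early response genes, induced within minutes by growth factors, summed to 1779 and 1568 CPM in IgG replicates 1 and 2 against 2681 and 2549 CPM in the inputs, 0.64 times. Of 31 tested, 7 were at least 2-fold lower and 0 higher, and an unadjusted p under 0.05 was seen in 11 on the lower side and 0 on the higher. JUN was the lowest and ATF3 the highest, with 25 and 28 IgG counts against 27 and 21. Cytosolic ribosomal proteins summed to 2364 and 2520 CPM against 3612 and 3847 CPM, and their median was -0.53. Of 56 tested, 12 were at least 2-fold lower and 0 higher. RPL23A held 0 and 6 IgG counts against 36 and 35 input counts in a window that overlaps another. In both families the sums of the IgG pair lay close together and below both inputs.

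Further housekeeping lists lay below input by less. Oxidative phosphorylation subunits had a median of -0.42 with 3 of 44 at least 2-fold lower and 1 higher, and proteasome subunits -0.40 with 0 of 29 lower and 2 higher. These shares of lower windows were near or below the background of 6.74%. ATP5F1B, a subunit of ATP synthase, held 19 and 6 IgG counts against 42 and 48. COX7B2 held 41 and 51 against 39 and 33. Spindle genes and NuMA partners had a median of -0.39, with 1 of 17 at least 2-fold lower and 0 higher. Each of the 17 fitted ratios was below 0, where the median of all tested windows was 0.01. In 6 of the 17 both IgG libraries lay below both inputs, against 28.3% of all tested windows. Fibroblast and matrix genes had a median of -0.33 with 3 of 19 lower and 1 higher. VIM (vimentin) held 12 and 3 counts against 33 and 35, while THY1, a fibroblast surface glycoprotein, held 31 and 30 against 28 and 15. Single-strand break and base excision repair genes had a median of -0.12. PARP1, the sensor of strand breaks, was the lowest with 19 and 14 IgG counts against 60 and 67.

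HOX genes and other developmental regulators differed in sign between the IgG libraries. HOX genes, the patterning regulators of the body axis, had a fitted median of 0.19 but 0.33 in IgG replicate 1 and -0.03 in replicate 2. Other developmental regulators had a fitted median of 0.37 but 0.46 and -0.11 by library. Within that list TBX4 held 80 and 44 IgG counts against 51 and 58, and TBX2 held 22 and 7 against 80 and 66, although both are T-box factors of the same chromosome. Without IgG replicate 1 the medians of both lists were below 0, at -0.06 and -0.14. Zinc finger genes on chromosome 19 had a median of 0.02, with 16 of 169 at least 2-fold higher and 16 lower, and those on other chromosomes had -0.29 (-0.26 in each IgG library), with 10 of 181 higher and 18 lower. ZNF577 held 41 and 44 IgG counts against 30 and 20, and ZNF146 held 34 and 11 against 102 and 102.

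Shares by chromosome differed less between IgG and input than shares by CpG quintile. Chromosome X took 2.54% and 2.60% of the counts of IgG replicates 1 and 2 against 2.30% and 2.36% in the inputs, 1.10 times. Its median log2 ratio was 0.19 (-0.55 under the flank scaling), with 15.3% of windows at least 2-fold higher and 9.61% lower. Within the poorest CpG quintile, chromosome X took 2.95% and 3.04% of that quintile's IgG counts. Of its input counts chromosome X took 2.89% and 3.05%, and the libraries overlapped. Within the richest quintile it took 1.73% and 1.68% of IgG counts against 1.62% and 1.60% of input counts. There both IgG libraries were above both inputs. Chromosome 21 had the highest median, 0.27, but its 183 tested windows include 45 of keratin-associated proteins, and without them the median was -0.04. On chromosome 11, 14.6% of windows were at least 2-fold higher, and 11.2% without its 77 olfactory receptors. At least 2-fold higher windows were fewest on chromosome 22 (1.58%), chromosome 19 (4.63%) and chromosome 16 (4.64%). On these 3 chromosomes IgG replicate 2 took 2.43%, 7.73% and 4.07% of its counts against mean input shares of 2.90%, 8.93% and 4.65%. IgG replicate 1 took 2.95%, 9.04% and 4.60%, close to input.

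**Figure D5:**
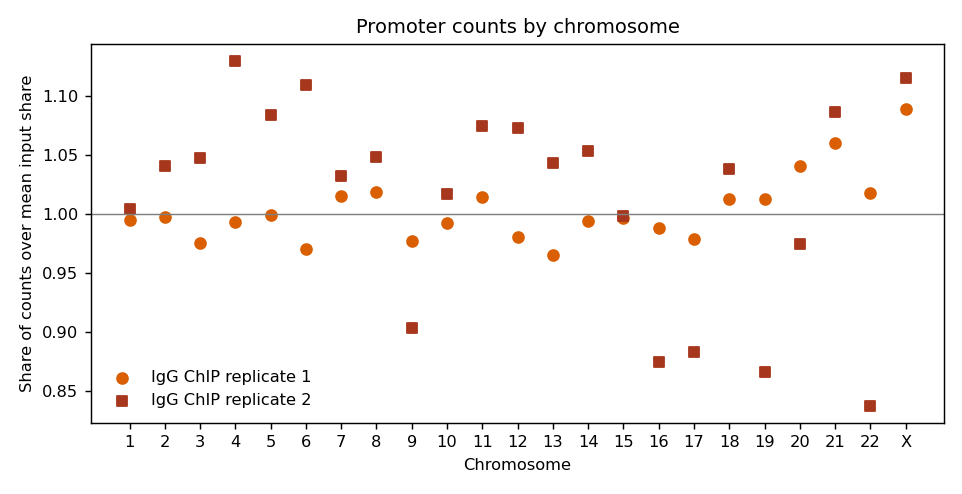
Share of promoter counts on each chromosome divided by the mean share in the inputs (vertical axis, no unit) for IgG ChIP replicate 1 (circles) and replicate 2 (squares); the line at 1 marks equal shares. Replicate 2 spreads further from the line than replicate 1, and chromosome X lies above it in both.

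Spacing between promoters gave small differences. Windows whose nearest neighbour lay over 100000 bp away took 1.06 times their input share in IgG, and those without overlap but with a neighbour within 20000 bp 0.97 times. The 3741 windows that overlap another (18.7%) took 0.91 times, and their counts were low in every library, with a median of 2 in each IgG library and 3 in each input against 20 to 45 in other windows. The gradient with CpG was also present among isolated promoters: the poorest quintile took 12.5% and 18.4% of their IgG counts against 9.36% and 10.1% of their input counts. Of the reference promoters, GAPDH, a glycolytic enzyme, held 35 and 30 IgG counts against 76 and 94, a log2 ratio of -0.67 ± 0.32 (SE) with an edgeR adjusted p of 0.204. NUMA1, the gene of the ChIP target, held 4 and 5 IgG counts against 5 and 8 in an overlapping window, too few to test. No window was assigned to ACTB.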

How the data were processed

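ChIP and input DNA of MRC5 cells was sequenced. The authors deposited raw counts, whole numbers per promoter window and library, for windows reaching 1000 bp to each side of a start site, and start site profiles of summed signal. Per the submitters' processing notes, BWA 0.7.17-r1188, bedtools, featureCounts, MACS2 and build hg38 were used. Which tool made which file, and how mates and overlapping windows were counted, is not given in the sources used here. Counts from 6 to 10 were even in 72.7% to 79.8% of windows, where an even spread gives 60%.

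Symbols were assigned by position (16281 windows, 81.6%): the nearest RefSeq start within 1000 bp of the window's centre on its strand, at a median distance of 34 bp. Windows shifted by 20000 bp matched in 2.58%. RefSeq GRCh38.p14 gave 300 bases for 12514 windows (62.7%), none on chromosome 8.

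In R 4.3.3, edgeR 4.0.16 kept windows by filterByExpr (minimum count 10), scaled by TMM and ran a quasi-likelihood F-test with 2 residual degrees of freedom and Benjamini-Hochberg adjustment. Shares were compared by exact permutation over libraries. The code was tested on simulated data. Alternatives were DESeq2 1.42.0, limma-voom (limma 3.58.1), other scalings, filters and windows, and each library left out. In CPM, 1 count equals 1.27 to 2.87, which bounds the precision of low windows. The SE of a log2 ratio is its size over the root of the edgeR F statistic. It therefore includes the spread between libraries.

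Named promoters are the 10 per direction with the smallest edgeR p (none passed, so the rule's fallback applied) with both IgG libraries on the same side of both inputs and a symbol that is no clone name, the highest and lowest tested member of each list, and GAPDH, NUMA1 and ACTB. Not every promoter the rule names is reported here. Members and lists were chosen with earlier results of these data known. The IgG and input groups share only replicate number 1, so no pairing could be checked.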

Additional observations from a re-analysis of the deposited data

How the results depend on the processing

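No single promoter passed 0.05 in the edgeR fit, and the number of calls depended on the processing. The cause was not tested. In higher and lower windows, calls were 1 and 5 with total-count scaling, 34 and 3123 with flank scaling, 1 and 5 with no count filter, 783 and 289 with a minimum of 30 counts, 37 and 13 with DESeq2, 193 and 9 with limma-voom, 38 and 28 with all 6 libraries in 4 groups, 1 and 5 with 3 groups, 467 and 255 with counts divided by 2, 1 and 1 without overlapping windows and 87 and 58 with CpG trend offsets. The last covers the 10229 windows with a sequence, so its counts are not of the same windows. Flank scaling carries the lower IgG promoter counts, so its calls lean to the lower side. Calls were 0 and 0 in a test above 1.5-fold, with counts thinned to the smallest total and with a replicate block over all 6 libraries. Leaving out 1 library gave 0 to 1625 higher and 0 to 853 lower calls. The counts were 1625 and 853 without IgG replicate 1, 653 and 612 without IgG replicate 2, 10 and 1 without the NuMA input, and 0 and 0 without the IgG input. In these fits the lone library of a group is assumed to vary like the other group, and using 1 input alone is the same fit as leaving out the other.

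The shares by CpG kept their direction in every alternative run. In the poorest and the richest quintile both IgG libraries lay beyond both inputs, so leaving out 1 library could not reverse the direction. Scaling does not enter a share, so the other scalings were not among these runs. The difference in the richest quintile ran from -5.74 to -3.13 points with 1 library left out and was -3.89 by GC content. In the poorest quintile it ran from 5.97 to 11.1 points and was 7.05 by GC content. Without IgG replicate 1 the poorest quintile therefore differed by 11.1 points, and without IgG replicate 2 by 5.97. Of the 20 leading promoters, flank scaling passed 1 of 10 on the higher side (KRTAP19-7) and 10 of 10 on the lower. The lean of that scaling to the lower side applies here too. No named promoter took the opposite sign past the threshold. Medians have no threshold, and some changed sign. Under flank scaling 16 of 28 list medians, 10 of 23 chromosome medians and 3 of 5 CpG quintile medians kept their sign. Without IgG replicate 2 these were 28 of 28, 13 of 23 and 4 of 5. Depth limits windows under about 10 counts, where 1 count is a large part of the value.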

Other observations

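The NuMA ChIP libraries were set against the same inputs in a separate fit, so both ratios share their controls and are given side by side only. CCDC179 had a log2 ratio to input of 1.76 with IgG and -1.87 with NuMA. IVL had 0.47 with IgG and -3.32 with NuMA, and OR51E1 -0.40 and -1.84. NuMA replicates 1 and 2 held few counts there: 6 and 7 for CCDC179, 7 and 0 for IVL and 11 and 10 for OR51E1. KHDRBS2 was above input in both, at 1.88 with IgG and 2.34 with NuMA, as was AMPH at 1.66 and 2.61. Among promoters low with IgG, HEXIM1 had -2.01 with IgG and -2.32 with NuMA. SMAD2 had -1.59 and 0.63, and TBX2, a T-box factor, -1.67 and 1.03. These promoters were chosen after their values were seen.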
